A study of Mus musculus with 3 samples.

Results

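RNA of splicing factor genes was measured in mouse T-helper 1 (Th1) cells, the CD4 helper T cells that make interferon-gamma. The genes were chosen by name: protein-coding genes whose symbol begins with Hnrnp, Srsf, Sf3a, Sf3b, U2af or Snrp, which gave 55 of the 50600 genes in the tables and of the 21764 protein-coding genes. They comprise 20 hnRNP genes, 11 SR protein genes (Srsf), 3 SF3A and 6 SF3B genes, 3 U2AF genes and 12 Snrp genes. Another 5 genes that the names matched are processed pseudogenes, with at most 2 counts in a library, and were not members. The spliceosomal genes named Snrnp, such as Snrnp70, fall outside the rule and are described with the other spliceosome subunits.

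Titles give total RNA-seq as the assay, but the linked document on library construction carries poly(A)+ in its name, so which RNA was selected is unsure. The series holds 3 libraries of 1 group, Th1 primary cells of strain C57BL/6NJ, numbered as biological replicates 1, 2 and 3. The labels give no treatment and no genotype beyond the strain, list age as unknown, and link a protocol for differentiating CD4+ T cells; the file headers alone name a time of 2 hours. All 3 libraries carry the same donor entry, and whether they come from separate animals is not stated. P-values below refer to the spread between these 3 samples, which may be technical. With no second group, the data give levels of genes in Th1 cells and their differences between replicates.

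Splicing removes introns from pre-mRNA and is carried out by the spliceosome, which is built from small nuclear ribonucleoproteins (snRNPs) that each hold a small nuclear RNA and proteins. The Sm proteins form a ring on that RNA, U2AF marks the downstream end of the intron, and the SF3A and SF3B complexes hold the U2 snRNP on the branch point. SR proteins mostly bind exons and favour their use, while hnRNP proteins coat the transcript and often oppose it. In T cells, splicing of Ptprc, which encodes the phosphatase CD45, is a classic case, and Hnrnpll is known to control it. The counts are per gene, so they do not tell which exons were used.

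Replicates 1, 2 and 3 hold 4442901, 3123869 and 2950658 counts. Levels are in TPM, which are counts per exon base scaled to the same sum in each library. None of the 12 pan-T markers was below 1 TPM in any library; their median was 189.7 ± 62.6 TPM (SD, n = 3), and Cd4 was present at 107 TPM. The 8 Th1 markers had a median of 1.78 ± 0.698 TPM and ranged widely. Fasl, Stat4 and Il12rb2 had means of 22.99, 15.9 and 11.9 TPM, while the defining factor Tbx21 had 19, 7 and 11 counts and Ifng 1, 2 and 0 counts. The B cell, NK cell and erythroid medians were 0, although Cd79a, of B cells, had 36.4 TPM and Csf1r, of macrophages, which lies opposite another gene's exon, 157.6 TPM. The 2 CD8 T markers had a median of 3.43 ± 1.74 TPM, above that of the Th1 markers. Cd8b1 had 34, 16 and 10 counts and Cd8a 2, 1 and 0 counts. Epcam, of epithelium, had 7.36 TPM. The share of counts in opposed genes, those with an exon overlapping an exon on the other strand, was 55.1%, 69.1% and 67.3% in replicates 1, 2 and 3, and it moves with the values below. Reads were counted with strand setting 1, which credits a pair to the gene on the strand of its first read. The sources used here do not say which read carries the strand of the RNA, so a TPM is the level recorded on the annotated strand under that setting. If the libraries carried the opposite strand, that level would not be the gene's own RNA. In the tables, 16 of the 21 genes opposite detected members had more counts per exon base than the member. Whether the setting matches the libraries was not tested, so every level below is conditional on it.

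Of the 55 members, 19 were opposed, 2 (Hnrnpll and Snrpg) overlapped a gene of the other strand outside its exons, and 34 were unopposed. Among the opposed, several overlap the gene on the other strand at their start, so the bases before the start are shown for 4 genes. By the exon length in the files, Hnrnpab was the highest member, and it opposes Phykpl at its end. Srsf2 and Sf3a2, the highest of their families by that length, begin head to head with another gene, and U2af1, the highest U2AF gene by that length, has no gene opposite. With the longest coding transcript as length, Hnrnpa2b1, Srsf5 and U2af2 would lead in place of Hnrnpab, Srsf2 and U2af1. The 250 bases before each start are from RefSeq on GRCm38.p6, on the strand of the gene. For Sf3a2 the RefSeq start lies inside the gene as counted, which begins at 80798198. Its 250 bases thus fall within the counted gene, not before it. Capitals mark matches on either strand to 4 short motifs. The GC box, a site of Sp factors, was searched as GGGCGG. The CCAAT box, a site of the factor NF-Y, was searched by those letters. The TATA box of some core promoters was searched as TATAAA. The core that ETS factors bind was searched as CCGGAA.
Hnrnpab, chr11:51606882-51607131, minus strand: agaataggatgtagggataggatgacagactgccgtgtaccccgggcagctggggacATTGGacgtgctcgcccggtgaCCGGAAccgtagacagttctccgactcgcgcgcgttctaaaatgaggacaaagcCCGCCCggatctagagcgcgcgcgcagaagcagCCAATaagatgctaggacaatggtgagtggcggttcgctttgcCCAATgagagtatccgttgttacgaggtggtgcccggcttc
Srsf2, chr11:116853095-116853344, minus strand: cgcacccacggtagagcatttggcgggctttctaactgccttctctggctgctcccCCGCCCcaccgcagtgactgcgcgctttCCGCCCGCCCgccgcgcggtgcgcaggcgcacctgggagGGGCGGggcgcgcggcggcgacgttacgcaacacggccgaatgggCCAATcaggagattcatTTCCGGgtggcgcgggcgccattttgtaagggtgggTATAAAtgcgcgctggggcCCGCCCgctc
Sf3a2, chr10:80798485-80798734, plus strand: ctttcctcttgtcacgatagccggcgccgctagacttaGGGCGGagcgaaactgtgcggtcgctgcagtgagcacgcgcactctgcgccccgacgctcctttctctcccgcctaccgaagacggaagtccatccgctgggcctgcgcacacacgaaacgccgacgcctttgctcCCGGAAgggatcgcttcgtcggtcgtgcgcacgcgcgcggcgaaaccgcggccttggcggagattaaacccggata
U2af1, chr17:31658755-31659004, minus strand: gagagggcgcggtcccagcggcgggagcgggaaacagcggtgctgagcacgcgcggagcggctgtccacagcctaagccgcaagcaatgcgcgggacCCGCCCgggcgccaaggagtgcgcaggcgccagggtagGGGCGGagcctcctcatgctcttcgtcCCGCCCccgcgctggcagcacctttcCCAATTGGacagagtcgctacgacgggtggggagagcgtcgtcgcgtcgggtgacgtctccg
Hnrnpab holds 3 CCAAT boxes, 1 GC box and 1 ETS core. Srsf2 holds 5 GC boxes and is the one of the 4 with a TATA box. The Srsf2 bases overlap exons of Mfsd11, on the other strand, over 50 bases, and those of Sf3a2 overlap exons of Plekhj1 over 142 bases.

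Across the family, promoters were rich in CpG. RefSeq gave 66 windows for 48 members, each of 250 bases before to 50 after a start. The median window held 25.5 CpG, against 7.0 over all 32851 windows, and median GC content was 61.0% against 52.7%. An ETS core was in 45.5% of member windows and 14.9% of all windows, and a GC box in 68.2% and 35.7%. CCAAT was in 45.5% and 37.4%, and TATAAA in 10.6% and 13.6%. Matches on both strands were searched, and overlapping matches were counted separately. These are matches of letters in windows that also differ in base composition, and no binding was measured.

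Most splicing factor genes were recorded above the median protein-coding gene. Of the 55 members, 53 reached 1 TPM in every library and 49 reached 10 TPM, and 1, Snrpn, had no count. The median member stood at 92.3 TPM in replicate 1, 45.9 in replicate 2 and 54.9 in replicate 3 (mean 64.3 ± 24.6, SD, n = 3). The same median was 0.252 ± 0.0511 TPM over all protein-coding genes, and 12.6 ± 4.04 TPM over the 7911 of them with enough counts to be fitted. Unopposed members had a median of 78.8 ± 24.9 TPM and opposed members 58.7 ± 19.4 TPM. Together the members held 6477, 3678 and 4305 TPM, or 0.482% ± 0.147 of all TPM. In TPM over all genes the sum was highest in replicate 1, the library with the smallest share of counts in opposed genes. Whether that share bears on the sum was not tested. The spread rests on the scale. With unopposed genes alone as denominator, the sum was 23940 ± 818.5 TPM and the median 314.4 ± 11.7 TPM (SD, n = 3), a smaller SD relative to the mean. In bulk libraries, fewer cells of a type and less RNA per cell cannot be told apart.

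hnRNP genes held most of the members' TPM. Their share of the summed TPM of the members was 52.6% ± 1.60 (SD, n = 3), followed by SR genes at 21.6% ± 1.11 and Snrp genes at 11.2% ± 1.397. SF3B took 5.28% ± 0.170, U2AF 4.68% ± 0.236 and SF3A 4.61% ± 0.785. The plot of levels by family shows the 3 libraries of each member.

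**Figure D1:**
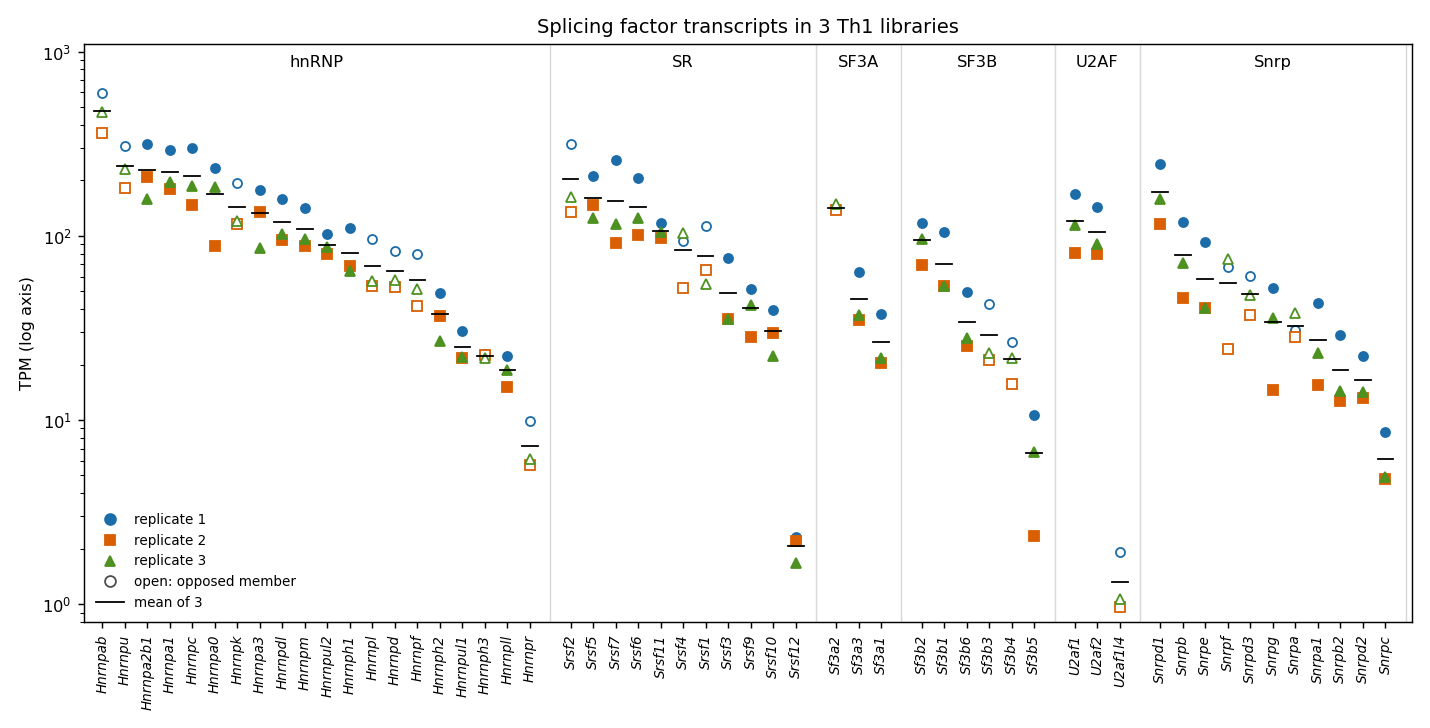
TPM of each splicing factor gene (log axis) in replicates 1, 2 and 3, ordered by mean within the 6 families, with open symbols for opposed members and a line at the mean. Most members sit above 10 TPM, Hnrnpab is highest by the exon length in the files, and Snrpn, at 0 in every library, has no level to show.

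Among the Sm proteins, which form the ring on the small nuclear RNAs, Snrpd1 was highest. It stood at 245, 117 and 158 TPM in replicates 1, 2 and 3 (mean 173 ± 65.3, SD, n = 3). Snrpb, the SmB subunit, followed at 119, 45.9 and 71.5 TPM. Neither has a gene opposite. In both genes replicate 1 was highest and replicate 2 lowest. The remaining ring subunits were lower: Snrpe had a mean of 57.9 TPM, Snrpf 55.4, Snrpd3 48.6, Snrpg 34.2 and Snrpd2 16.5 TPM. Although the ring holds 1 copy of each subunit, Snrpd1 exceeded Snrpd2 per exon base by 11.03, 8.81 and 11.2 times. With the longest coding transcript as length the ratio was 5.84, 4.66 and 5.91, in the same direction in all 3 libraries.

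Snrpn, the paralog of Snrpb known from neurons and from genomic imprinting, had 0 counts in every library. A count of 0 allows, at the usual floor of 3 counts per library, up to 0.635, 0.741 and 0.818 TPM, and this covers counting error only. Snrpb and Snrpn transcripts shared no stretch of 50 bases. The next lowest Snrp gene was Snrpc, which encodes a protein of the U1 snRNP, at 8.60, 4.802 and 4.93 TPM. Its exons cover 6217 bases in the files while its longest coding transcript has 1013, and with the latter as length its mean was 31.6 TPM. Snrpa, another U1 protein, had 30.7, 28.1 and 38.2 TPM, with replicate 3 highest. The U2 snRNP proteins Snrpa1 and Snrpb2 had means of 27.2 and 18.6 TPM.

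U2AF recognises the downstream splice site: U2af2 binds the pyrimidine tract and U2af1 the AG that follows. U2af1 had 168, 81.0 and 114 TPM and U2af2 144, 80.1 and 89.9 TPM in replicates 1, 2 and 3. The ranges overlapped, and the ratio of U2af1 to U2af2 was 1.17, 1.01 and 1.27. The order of this pair depends on length: with the longest coding transcript it was 0.576, 0.4998 and 0.628, so U2af2 was higher. U2af1l4, a paralog of U2af1, was the lowest detected member, with 7, 3 and 3 counts, or 1.93, 0.966 and 1.07 TPM. Of its exon bases, 65.6% are shared with a gene on the same strand, where reads cannot be credited to 1 gene, as are 27.3% for Snrpn and 24.9% for Hnrnpm. It also opposes, over 7.19% of its exons, Psenen, a gamma-secretase subunit, which had 402, 422 and 379 counts. Counts of U2af1l4 are at or near the floor of 3, and order within them cannot be read.

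SF3A and SF3B join the U2 snRNP to the branch point. Sf3a2 stood at 140.3, 138 and 149 TPM (mean 142 ± 5.56, SD, n = 3). These near-equal values belong to TPM over all genes: over unopposed genes alone it had 498, 922 and 839 TPM, lowest in replicate 1, and its counts differed beyond counting noise (adjusted p = 7.82e-22, chi-square test on edgeR-scaled counts, described below). Sf3a3 had 64.0, 34.8 and 37.0 TPM and Sf3a1 37.6, 20.5 and 21.8 TPM. The ratio of Sf3a3 to Sf3a1 was 1.70 in each of the 3 libraries, while that of Sf3a2 to Sf3a1 was 3.73 in replicate 1, 6.75 in replicate 2 and 6.84 in replicate 3. Sf3a2 thus differed from its partners in which library was highest: it was highest in replicate 3 by a small margin, and they in replicate 1. Of the 3, Sf3a2 alone is opposed, by Plekhj1 over 16.1% of its exons. Plekhj1 had 162, 96 and 103 counts against 816, 689 and 671 for Sf3a2.

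In SF3B, Sf3b2 was highest at 118, 69.5 and 95.9 TPM, ahead of Sf3b1 at 105, 53.3 and 53.6 TPM. The order turned with the longest coding transcript as length, which gave means of 109 TPM for Sf3b1 and 79.9 TPM for Sf3b2. Sf3b1, the subunit that contacts the intron around the branch point and is the target of several splicing inhibitors, exceeded Sf3b5, a small subunit of the complex, by 9.79, 22.6 and 7.95 times per exon base. Sf3b5 was lowest at 10.7, 2.36 and 6.75 TPM. It rested on 90, 17 and 44 counts, and replicate 2 was lowest. Sf3b6 and Sf3b3 had means of 34.1 and 29.0 TPM, and Sf3b4 21.3 TPM. All 5 neighbouring pairs in the SF3B order kept that order in all 3 libraries, on the exon length in the files.

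SR proteins were led, by the exon length in the files, by Srsf2, which binds exonic enhancers, at 315, 134 and 163 TPM in replicates 1, 2 and 3 (mean 204 ± 96.9, SD, n = 3). Srsf5 followed at 210.1, 146 and 126 TPM, then Srsf7 and Srsf6 with means of 155 and 144 TPM. With the longest coding transcript as length Srsf5 came first, at a mean of 345 TPM against 267.5 TPM for Srsf2. Replicate 1 was highest in each of these, and in the SR family it was highest in 10 of 11 members, beside 70.9% of all fitted genes. That count is for TPM over all genes and rests on this scale, as described below. Srsf1, the founding member of the family, stood at 114, 65.4 and 54.9 TPM and Srsf3 at 75.8, 35.3 and 35.4 TPM. Srsf11 had a mean of 107 TPM, Srsf9 40.5 and Srsf10 30.5 TPM. Srsf12 was lowest at 2.32, 2.20 and 1.68 TPM, from 16, 13 and 9 counts. The gap from Srsf10 to Srsf12 was 3.86 ± 0.208 on the log2 scale of TPM (SD, n = 3). Of the 10 neighbouring pairs of SR genes, 4 kept their order in every library. The pair Srsf5 and Srsf7 was not among them.

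Srsf4, with 94.1, 52.4 and 104 TPM, was the SR member highest in replicate 3. It is opposed over 43.0% of its exons by Gm12992, which had 4603, 3830 and 4533 counts, against 733, 350 and 627 for Srsf4. Both genes were lowest in replicate 2, as were most members in TPM. SR genes are known for exons that, when kept, send their own transcript to nonsense-mediated decay. In the later annotation 9 of the 11 SR genes have a transcript of that class, against 20.9% of all protein-coding genes and 32.0% of those fitted. U2AF had 3 of 3, hnRNP 10 of 20, Snrp 4 of 12, SF3B 1 of 6 and SF3A 0 of 3. Where such exons are also in the earlier annotation used for counting, they add to the length that the files give. Whether they are was not checked, and the files do not tell which transcript a read came from.

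The hnRNP family held the highest member of all by the exon length in the files, Hnrnpab, which encodes an RNA-binding protein of type A/B. With the longest coding transcript as length the highest was Hnrnpa2b1, at a mean of 730.0 TPM against 472 TPM for Hnrnpab. Hnrnpab had 593, 364 and 472 TPM in replicates 1, 2 and 3 (mean 476 ± 115, SD, n = 3), and 10% ± 0.911 of the TPM of all members. Its gap to the next member, Hnrnpu, was 1.00 ± 0.0414 on the log2 scale of TPM, and the lowest Hnrnpab value exceeded the highest Hnrnpu value. Hnrnpu, a nuclear matrix attachment factor, had 307, 181 and 231 TPM. Hnrnpa2b1, Hnrnpa1 and Hnrnpc, 3 classic core hnRNP proteins, followed with means of 227, 223 and 211 TPM. The order of Hnrnpa2b1 and Hnrnpa1 changed between libraries: their ratio was 1.07, 1.15 and 0.809. With the longest coding transcript, Hnrnpa2b1 exceeded Hnrnpa1 by 4.09, 4.40 and 3.08 times, so their order is a matter of the length used.

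Hnrnpr, a relative of the RNA-binding protein Syncrip, was the lowest hnRNP gene, at 9.90, 5.71 and 6.18 TPM from 481, 238 and 233 counts. It is long: its exons cover 22199 bases. Hnrnpll, the known regulator of CD45 splicing in T cells, stood at 22.3, 15.0 and 18.7 TPM. Its relative Hnrnpl exceeded it per exon base by 4.30, 3.54 and 3.05 times, or by 2.55, 2.10 and 1.81 times with the longest coding transcript. Ptprc, the CD45 gene, had 353, 202 and 194 TPM. For 4 other hnRNP genes the means were 169 TPM for Hnrnpa0, 144 for Hnrnpk, which also acts in transcription, 132 for Hnrnpa3 and 81.0 for Hnrnph1. Hnrnpa1 and Srsf1, which are known to oppose each other in splice site choice, differed by 2.58, 2.75 and 3.57 times, with Hnrnpa1 higher in all 3 libraries. Hnrnpc, which competes with U2af2 for uridine-rich tracts, exceeded it per exon base by 2.08, 1.85 and 2.07 times, but by 1.11, 0.988 and 1.11 times with the longest coding transcript.

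The remaining hnRNP genes spread below these levels. Hnrnpdl, Hnrnpm and Hnrnpul2 had means of 119, 109 and 89.4 TPM. Hnrnpl had 68.7, Hnrnpd, which binds AU-rich elements, 64.5, Hnrnpf, which binds G-runs, 57.5 and Hnrnph2 37.5 TPM. Hnrnpul1 and Hnrnph3 were at 24.8 and 22.4 TPM. In all 20 hnRNP genes replicate 1 was highest in TPM over all genes, beside 70.9% of all fitted genes. This rests on the scale, as described below.

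Rank within the family of members was stable in part. Across the 54 detected members, Spearman's rho of TPM was 0.963 between replicates 1 and 2, 0.968 between 1 and 3 and 0.954 between 2 and 3, beside 0.934, 0.955 and 0.971 over 9469 fitted genes. The libraries share cell type and annotation, so these values describe order only. Of 1431 pairs of detected members, 1269 stood in the same order in all 3 libraries. Of 53 neighbouring pairs in the order of means, 8 did, among them Hnrnpab above Hnrnpu, Srsf2 above Snrpd1 and Snrpd2 above Hnrnpr. Among hnRNP genes 10 of 19 neighbouring pairs did, in Snrp 5 of 10. The other neighbours did not differ in a direction shared by all libraries.

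Differences between libraries were tested in 2 ways over all 9469 genes that had enough counts, of which 52 are members; Snrpn, U2af1l4 and Srsf12 did not pass that filter. First, a chi-square test asked whether a gene's 3 counts differed by more than counting noise, after TMM scaling in edgeR, with Benjamini-Hochberg adjustment at 0.05. It called 37 of 52 members, beside 59.6% of all genes tested. This test calls a given difference more readily at high counts. The median member stood above the median fitted protein-coding gene, and the shares over other genes were not matched for abundance. A higher share of calls therefore does not show that members vary more. Of unopposed members 23 of 33 were called, where 2128 of 4221 unopposed protein-coding genes fitted were. Of opposed members 12 of 17 were called, where 1771 of 2834 opposed protein-coding genes were. By family the calls were 13 of 20 hnRNP genes, 9 of 10 SR genes, 8 of 11 Snrp genes, 4 of 6 in SF3B, 1 of 3 in SF3A and 2 of 2 in U2AF. Without replicate 1 there were 23 calls in 52 members, beside 25.6% of all genes then fitted. With unopposed genes only, scaled among themselves, there were 21 calls in 33 members, beside 36.0% of those genes.

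Among members whose counts differed beyond noise, Hnrnpa0 had 1364, 442 and 841 counts (adjusted p = 3.96e-31, edgeR scaling), and Hnrnpa2b1 had 4539, 2563 and 1771 (adjusted p = 5.73e-29). The first was lowest in replicate 2 and the second in replicate 3. Srsf7, with 1279, 391 and 449 counts (adjusted p = 9.30e-28, edgeR scaling), was high in replicate 1. By contrast Hnrnpa1, with 1231, 647 and 638 counts, was not called (adjusted p = 0.746, edgeR scaling). Hnrnpm, Hnrnpd and Snrpd2 were likewise not called, with adjusted p of 0.807, 0.778 and 0.906 in the same test on edgeR-scaled counts. A p above the threshold does not show that their levels were equal.

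Second, the spread of each gene was set against genes of similar abundance with the dispersion trend of edgeR. No member of 52 was called, against 24 of 9469 genes (0.253%). DESeq2, through Cook's distance, called 0 members and 0 genes. With 3 libraries of 1 group that distance can hardly reach its cutoff, so this 0 decides nothing. At an unadjusted p under 0.05 the edgeR trend test called 1 member, beside 6.44% of genes. That member was Snrpf, with 127, 39 and 109 counts and 67.4, 24.1 and 74.6 TPM in replicates 1, 2 and 3 (edgeR adjusted p = 0.739). It is opposed over 85.4% of its exons by Ccdc38, with 1972, 857 and 2327 counts, and by 4933408J17Rik, with 1616, 955 and 1786. All 3 genes were lowest in replicate 2, as were most members in TPM, and, but for Snrpf counts, highest in replicate 3. Their part in the spread of Snrpf was not tested.

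In TPM, 48 of 52 members were highest in replicate 1, where 70.9% of all fitted genes were. Of unopposed members 33 of 33 were highest there, beside 90.2% of unopposed fitted genes, and of opposed members 13 of 17, beside 49.1% of opposed fitted genes. The 4 others, Snrpa, Snrpf, Srsf4 and Sf3a2, were all opposed and all highest in replicate 3. Of the 12 pan-T markers, 11 were also highest in replicate 1; the part of T cell content in the members' values was not tested. Replicate 1 exceeded the mean of the other libraries by a median of 1.66 times, from 0.927 for Snrpa to 2.47 for Srsf7, beside 1.59 over all fitted genes. The median was 1.72 over unopposed members (1.78 over all unopposed genes) and 1.49 over opposed members (1.12 over all opposed genes). This rests on the scale: with TPM over unopposed genes alone, 12 of 52 members were highest in replicate 1, beside 26.8% of all fitted genes. By class these were 10 of 33 unopposed members (38.3% of unopposed genes) and 2 of 17 opposed members (14.7% of opposed genes). With CPM on TMM-scaled libraries they were 27 of 52 (42.4%), with 20 of 33 unopposed (58.4%) and 7 of 17 opposed (24.6%).

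**Figure D2:**
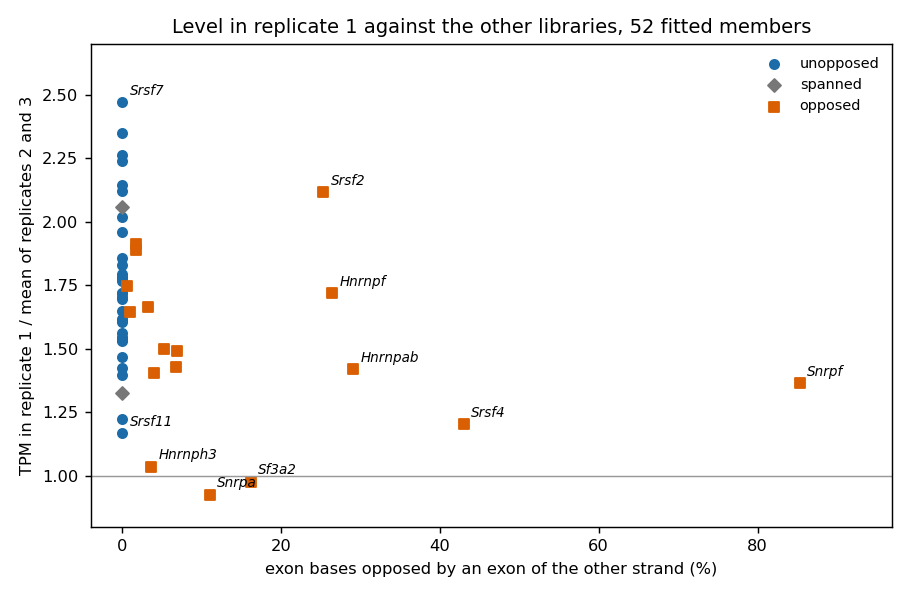
Ratio of TPM in replicate 1 to the mean of replicates 2 and 3 (vertical axis) for the 52 fitted members against the percent of their exons that lie opposite another gene's exon (horizontal axis), where spanned members overlap such a gene outside its exons. Snrpa has the lowest ratio and Srsf7 the highest, and all members below 1 are opposed.

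Between the other libraries the ratio varied among members. The same ratio was not computed over all genes, and the trend test above called no member. TPM in replicate 3 over replicate 2 had a median of 1.10 over the 52 members, and ranged from 0.638 for Hnrnpa3 to 3.09 for Snrpf. The highest ratios after Snrpf were 2.86 for Sf3b5, 2.47 for Snrpg, 2.10 for Hnrnpa0 and 1.98 for Srsf4. The first of these rest on few counts in replicates 2 and 3: 39 and 109 for Snrpf, 17 and 44 for Sf3b5, and 43 and 96 for Snrpg. The lowest after Hnrnpa3 were 0.728 for Hnrnph2, 0.748 for Srsf10 and 0.763 for Hnrnpa2b1. Among hnRNP A proteins, Hnrnpa0 was thus higher in replicate 3, and Hnrnpa2b1 and Hnrnpa3 in replicate 2.

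The genes on the other strand bear on what an opposed member's value means. The 18 opposed members with counts face 21 such genes, and 16 of these had more counts per exon base than the member, with a median of 3.75 times. For 7 members at least 10% of exons were opposed. Phykpl, an enzyme gene that opposes 29.1% of Hnrnpab exons tail to tail, had 27810, 28848 and 28525 counts, against 3611, 1897 and 2230 for Hnrnpab. In TPM, Phykpl had 1310.0, 1586 and 1732 and was lowest in replicate 1, where Hnrnpab was highest. Over unopposed genes alone, Hnrnpab too was lowest in replicate 1, at 2107, 2424 and 2664 TPM. Mettl23, a methyltransferase-like gene, had 12012, 7041 and 10025 counts and Mfsd11 6205, 6249 and 5256, against 2038, 746 and 819 for Srsf2. Mettl23, like Srsf2 and most members in TPM, was lowest in replicate 2, while Mfsd11 was highest there. Cox20, an assembly factor of cytochrome c oxidase, lies opposite Hnrnpu, and 91.0% of its exons overlap Hnrnpu exons; it had 3010, 3422 and 2573 counts. Hnrnpf, with 532, 237 and 265 counts, faces Gm43863 with 3150, 3174 and 3200.

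Where the opposing gene was the lower of the pair, it was so by a wide margin. Rmi1 had 0.027 times the counts per exon base of Hnrnpk, Gucd1 0.062 times those of Snrpd3, and Plekhj1 0.256 times those of Sf3a2. At the other end Gm11508 had 31.2 times those of Srsf1, and Gm17092 23.9 times those of Hnrnpd. Reads of such pairs share positions and are told apart by strand alone. The share that came from each gene was not tested.

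**Figure D3:**
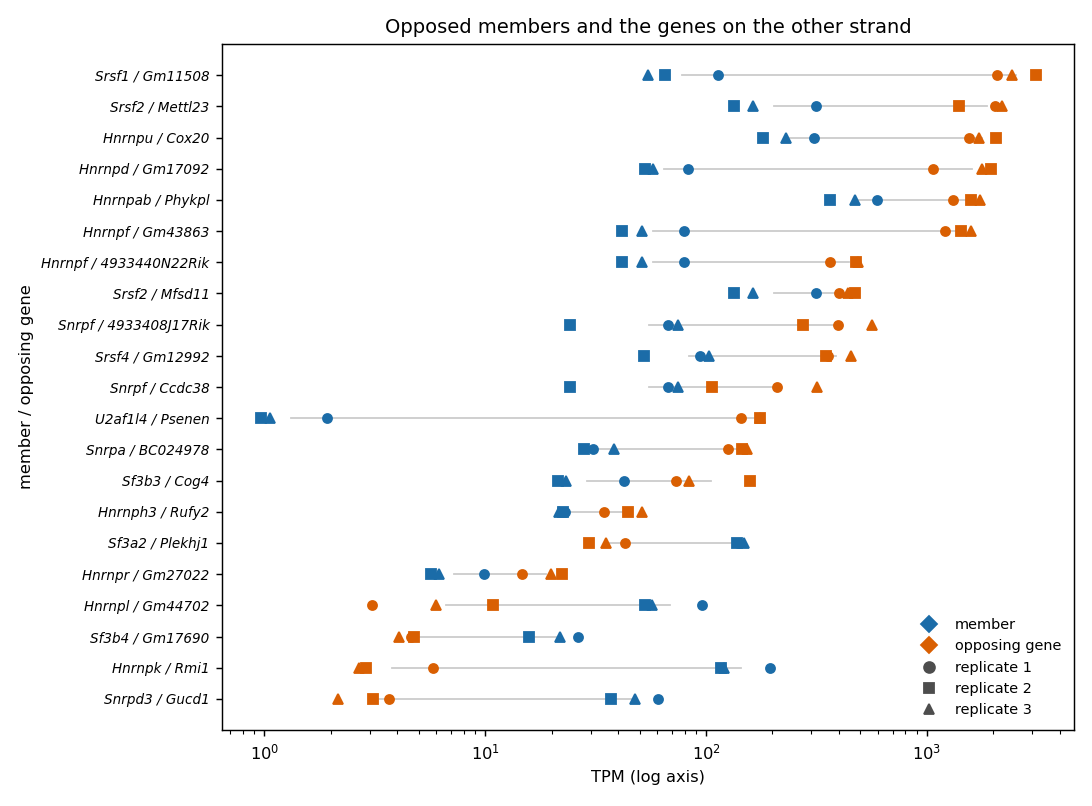
TPM (log axis) of each opposed member with counts and of the gene whose exons overlap it on the other strand, per library (circle, square and triangle for replicates 1, 2 and 3). Most opposing genes lie to the right of their member, and those of Snrpd3, Hnrnpk, Sf3b4, Hnrnpl and Sf3a2 lie to the left.

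Copies elsewhere in the genome limit some values. Of the 55 members, 19 share at least 10% of the 50-base stretches of their longest coding transcript with transcripts of genes elsewhere, and 20 share none. The largest share was 59.4% for U2af1, followed by 51.9% for Hnrnpf, 49.3% for Sf3b4 and 46.4% for Hnrnpa1. For Hnrnpa1 the copies lie in 19 genes. No member shared a stretch with another member, so the families are not confused with each other at that length. Reads within shared stretches can be lost or credited to a copy, so the levels of these genes are uncertain.

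Other splicing genes, in lists chosen with earlier results of these data known, had lower medians than the members in every library. The list of other spliceosome subunits, 62 genes, had a median of 25.97 ± 7.96 TPM (SD, n = 3), and all 62 reached 1 TPM in every library. Prpf38b, a paralog of the spliceosomal protein Prpf38a, was highest at 172, 179 and 205 TPM, then the U1-associated Prpf39 and the U1 protein Snrnp70, with means of 144 and 129 TPM; Snrnp25 was lowest at 2.71 TPM. SR protein kinases and SR-related proteins, 26 genes, had a median of 42.2 ± 15.6 TPM. Srrm2, a scaffold of nuclear speckles, had 234, 191 and 161 TPM, the kinase Prpf4b had a mean of 121 and Son, another speckle protein, 116 TPM; Srpk3, a kinase known from muscle, was lowest at 0.875 TPM. Other regulators of many tissues, 28 genes, had a median of 46.0 ± 18.6 TPM, led by Ybx1 at 422, 239 and 314 TPM, with Sfpq at 224 and Pcbp1 at 201 TPM, and Mbnl3 lowest at 0.693 TPM.

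Counting noise was exceeded by 33 of 61 fitted spliceosome genes, 20 of 25 of the kinase and SR-related genes and 24 of 27 other regulators, beside the 59.6% above. No gene of these lists was called by the edgeR trend test. Regulators known from other tissues, 21 genes, had a median of 0 TPM. Of these, 4 reached 1 TPM in every library. Esrp2, an epithelial regulator that is opposed, stood highest at 24.6, 12.9 and 27.0 TPM, Ptbp2, known from neurons, had a mean of 3.69 and Celf3 3.13 TPM. Several, such as Rbm24, known from muscle, had no count.

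**Figure D4:**
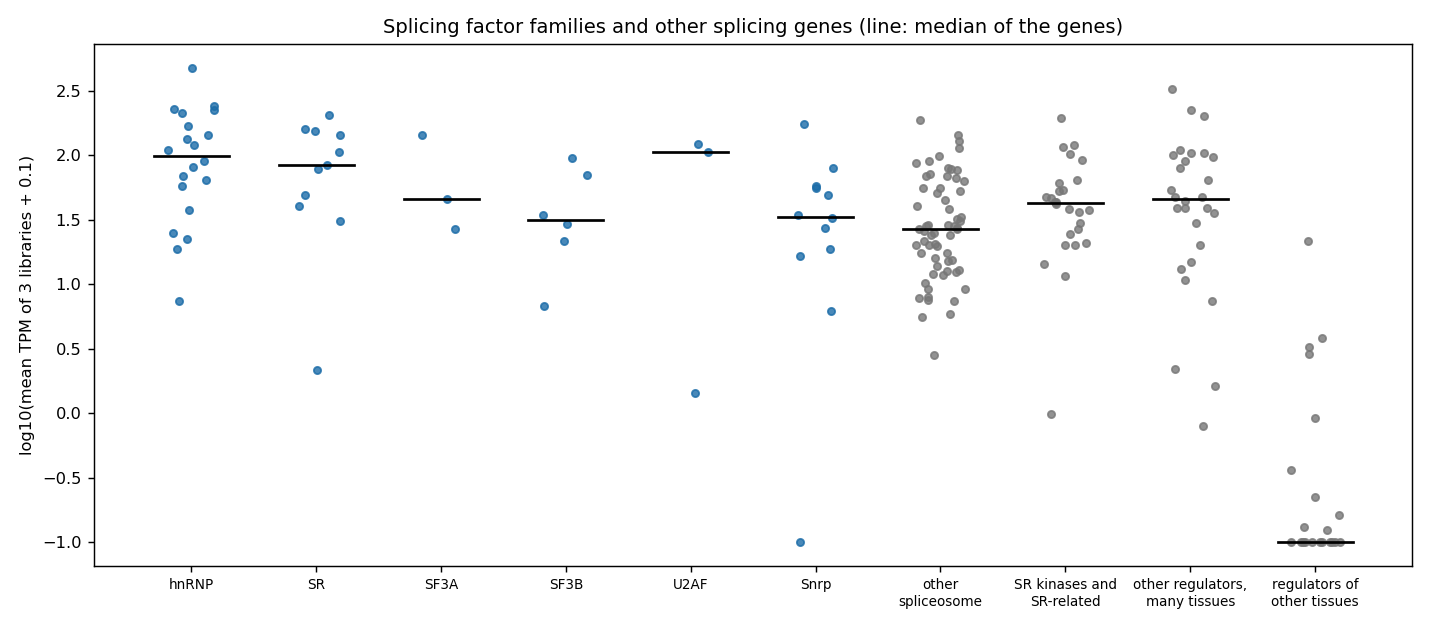
Mean TPM of 3 libraries, as log10 of TPM plus 0.1, for the members by family (blue) and for 4 lists of other splicing genes (grey), with a line at the median of each group. Regulators of other tissues sit at the bottom, while hnRNP, SR and U2AF medians are the highest.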

How the data were processed

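RNA sequencing of 3 libraries of Th1 cells was deposited as raw gene counts. FeatureCounts 1.4.6-p4 counted read pairs over exons of GENCODE vM13 on mm10, with strand setting 1 and both mates aligned, per the file headers; the deposited counts are not normalized. Exon length, from the files, gave TPM over all 50600 genes. Symbols and biotypes came from the later GENCODE vM21 (99.56% matched), as did transcript classes and the longest coding transcripts. Exon length by vM13 can thus be the shorter, as for U2af1, with 974 bases against 1046. Overlaps came from bedtools 2.31.1, and promoter windows from RefSeq GRCm38.p6. The members and lists were chosen with earlier results of these data known.

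Tests used edgeR 4.0.16 in R 4.3.3, TMM scaling and filterByExpr at a minimum count of 10, without covariates; DESeq2 1.42.0 was the alternative. Both tests are one-sided chi-square tests with 2 degrees of freedom, adjusted by Benjamini-Hochberg over 9469 genes. The common biological coefficient of variation was 0.28. Changes in 1 library were also simulated for these genes. In counts with counting noise alone, the noise test recovered 59% of genes at 1.5-fold and 87% at 2-fold (9 false calls). The real libraries spread more than that, so these rates need not hold for them. In counts drawn at the trended dispersion, the trend test recovered 40% at 4-fold and 97% at 8-fold (3 false calls).

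Values in every library were given for the highest, second highest and lowest member of each family and for members facing the 5 opposing genes with the highest counts. Of other lists, the 3 highest and the lowest gene were named. Other genes were named after their values were seen, as were the gene pairs with ratios. Alternatives changed scaling, filter, length, denominator, gene class, tool and replicates.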

Additional observations from a re-analysis of the deposited data

How the results depend on the processing

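No paired analysis was possible because there is 1 group. Of 85 alternative values, 56 stayed within the replicate spread or within 1.5 times the count. A mean over 3 libraries cannot leave that spread when 1 is dropped, and another denominator or CPM changes the unit. The tally therefore does not measure how robust the levels are. The noise test called 21 members with unopposed genes only (36.0% of those genes). With 1 replicate left out it called 23 to 30 members. The share of all genes was then 25.6% without replicate 1, 42.4% without replicate 2 and 47.3% without replicate 3. The trend test called 0 members in all alternatives. Cook's distance, used in its place, also called 0 but could hardly have called any gene. The median TPM of all members was 50.4 to 73.6 with 1 replicate left out, and the sum 3992 to 5391. With 1 replicate left out the family medians were 85.0 to 106 (hnRNP), 84.5 to 109 (SR), 35.9 to 50.5 (SF3A), 24.4 to 35.7 (SF3B), 85.0 to 117 (U2AF) and 28.4 to 42.3 TPM (Snrp).

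Protein-coding genes without mitochondrial genes as denominator gave 170.4 for the median of all members, 12910 for the sum, and 267, 254, 121, 83.6, 279.8 and 91.9 TPM for hnRNP, SR, SF3A, SF3B, U2AF and Snrp. Unopposed genes as denominator gave 314, 23940 and, in that order, 497, 475, 223, 154, 518 and 170.1 TPM. CPM gave medians of 119.5 for all members, then 264.5, 198, 88.8, 104 and 64.0 CPM for the first 5 families. SF3B moved to 52.3 TPM with unopposed members and 64.1 TPM with the longest coding transcript; the unopposed members summed to 2991 TPM. Members highest in replicate 1 numbered 12 with unopposed genes as denominator and 27 with TMM-scaled CPM, both chosen after seeing the data. The cause was not tested. Levels are therefore relative to the genes in the denominator. Counts under 10, as in every library for U2af1l4, also limit precision.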
